A study of Mus musculus with 30 samples.

Results

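The comparison described here set βTC3 cells with a pair of inducible short hairpins against ALK7 (sh1/2) beside a control line of the same cells, both treated with activin B. It used 6 of the 30 libraries of the series, 3 of each line, chosen by their titles and not by any measured value. βTC3 is a mouse insulinoma line that makes insulin, and ALK7, the product of Acvr1c, is a receptor for activins and related ligands. The sh1/2 line carried the hairpins in the plasmid PB-31, and the control line carried the plasmid PB-33. All 6 cultures received 1 µg/ml doxycycline (DOX), the inducer, for 24 hours and 50 ng/ml activin B for 24 hours, and all were labelled batch 1. Groups used beside them, of 3 libraries each and in batch 1, were the sh1/2 and control lines with DOX alone, a second hairpin line (sh2, in PB-31) with DOX and activin B, and a line labelled as expressing ALK7 from PB-33 with DOX, with and without activin B. Both hairpin lines of the series were built in PB-31, and PB-31 without a hairpin was not analysed here, so plasmid, line and hairpin cannot be told apart here. The replicates were culture wells, so p-values measured only the spread between wells, which may be technical. That spread was estimated over the wells of all 10 groups of the series.

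Activins bind a type II receptor serine kinase, which recruits and activates a type I receptor such as ALK7 (Acvr1c), ALK4 (Acvr1b) or, for TGF-β, ALK5 (Tgfbr1). The type I receptor phosphorylates SMAD2 and SMAD3, which enter the nucleus with SMAD4 and regulate genes, among them feedback inhibitors such as Smad7, Skil, Pmepa1 and Bambi. In pancreatic islets ALK7 is expressed in the endocrine cells, and activin signals act on their hormone genes and on their survival. Short hairpins are processed by the cell's small RNA machinery and direct cleavage of transcripts that pair with them.

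The 6 libraries held between 23204802 and 34740789 counts, and 15627 of 39017 genes passed the filter on low counts. Levels are CPM, counts scaled to library size with TMM factors, differences are log2 fold changes of sh1/2 minus control cells with their standard error (SE), and a gene was called when its adjusted p from edgeR's quasi-likelihood test was under 0.05. The test called 5499 genes (35.2%), of which 2647 (16.9%) were higher and 2852 (18.3%) lower in sh1/2 cells. Of these, 374 were higher and 315 lower by at least 2-fold. Control replicate 2 stood apart with few reads on GC-rich genes. Across genes, its departure from the group mean correlated with GC content at a Spearman coefficient of -0.67, against 0.61 and 0.42 in the other control replicates and -0.20 to 0.16 in the sh1/2 replicates. The log2 fold changes of sh1/2 minus control cells correlated with GC content at 0.35, and at 0.16 without control replicate 2. Without this replicate, 4171 genes were called (26.3%; 11.5% higher and 14.9% lower), and 3875 of the 5499 calls (70.5%) remained with the same direction. The beta cell markers were all detected, with summed levels of 10838 to 12572 CPM in sh1/2 libraries and 13153 to 15428 CPM in control libraries.

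**Figure D1:**
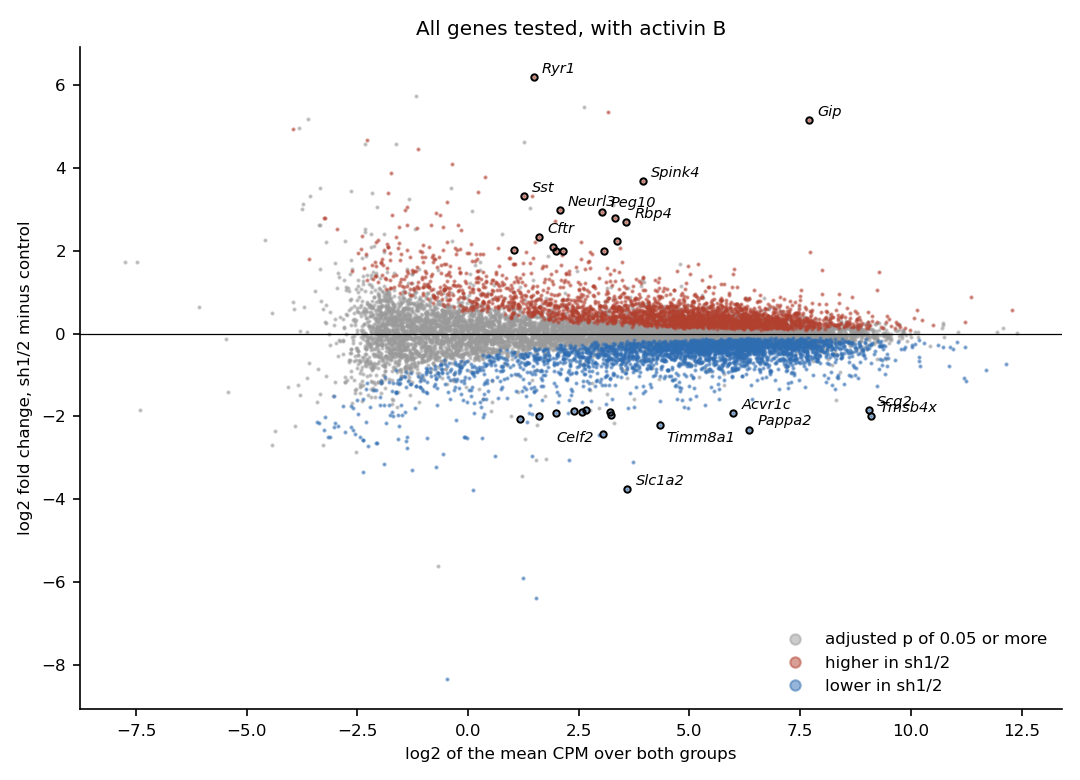
Each point is one of the genes tested with activin B, with its log2 mean CPM over both groups on the x axis and its log2 fold change of sh1/2 minus control cells on the y axis. Red points were called higher, blue points lower and grey points not called, and circles mark the 15 genes per direction chosen by size. Gip and Ryr1 stand furthest above 0 among the circled genes and Slc1a2 furthest below.

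The targeted gene was reduced in every sh1/2 library. Acvr1c (chromosome 2, 58267453 to 58357895, minus strand, in GRCm38) had 28.0, 25.5 and 26.6 CPM in sh1/2 cells, against 96.9, 110.0 and 95.2 CPM in control cells. The highest sh1/2 library lay below the lowest control library by more than 3-fold, and the log2 fold change was -1.91 ± 0.11 SE (adjusted p = 1.6e-12, edgeR quasi-likelihood test). Acvr1b, the gene of the related receptor ALK4, went the other way, with 46.3, 45.7 and 47.6 CPM in sh1/2 cells, against 34.2, 28.2 and 30.2 CPM in control cells (0.59 ± 0.083, adjusted p = 4.9e-06). The groups of this gene did not overlap either; over all genes tested they did not overlap for 23% (higher in sh1/2) and 22.7% (lower). Tgfbr1 and the type II receptors Acvr2a and Acvr2b had differences of -0.24, -0.33 and 0.65, each called and each lost without control replicate 2 (-0.17, -0.26 and 0.56). The Tgfbr1 call was also lost without any sh1/2 replicate or control replicate 3 (-0.26 to -0.23), and that of Acvr2b without sh1/2 replicate 2 or 3 or control replicate 3 (0.59, 0.59 and 0.64) and with a correction for GC content (0.38, adjusted p = 0.07). Tgfbr3, a co-receptor also called betaglycan, was lower (-0.73 ± 0.082), as was the ligand gene Gdf11 (-0.38 ± 0.08). Inhbb, which encodes the activin B subunit, did not pass the filter on low counts. Of 21 tested receptor, ligand and binding protein genes, 4 were called higher and 5 lower, and 2 and 3 without control replicate 2; the median was 0.14 against 0.0074 over all genes tested.

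Among the SMADs, the activin transducers Smad2 and Smad3 differed in opposite directions. Smad2 had 80.0, 70.6 and 73.4 CPM in sh1/2 cells, against 112, 112 and 109 CPM in control cells, a fall of 0.57 ± 0.046 (adjusted p = 6.7e-10). Smad3 rose by 0.46 ± 0.088, with 8.84, 8.10 and 8.75 CPM in sh1/2 cells, against 6.80, 5.48 and 6.30 CPM in control cells (adjusted p = 0.00022). The shared partner Smad4 did not pass the test (-0.044 ± 0.041, adjusted p = 0.43). The largest fall of the list was in Smad9, which encodes a SMAD of the BMP branch: 19.99, 20.7 and 19.4 CPM in sh1/2 cells, against 41.6, 42.4 and 38.8 CPM in control cells (-1.03 ± 0.07, adjusted p = 3.5e-11). The groups of Smad2, Smad3 and Smad9 did not overlap. Of 22 tested SMADs and regulators, 6 (27.3%) were called higher and 9 (40.9%) lower (median -0.10), beside 16.9% and 18.3% of all genes.

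The feedback inhibitors did not move as a group. Pmepa1, which sequesters receptor-activated SMADs, fell by 0.75 ± 0.15 to 42.5, 44.4 and 44.9 CPM in sh1/2 cells, against 83.5, 64.7 and 73.3 CPM in control cells. Ldlrad4, a related inhibitor, fell by 0.60 ± 0.11, while the pseudoreceptor gene Bambi rose by 0.30 ± 0.057 and the corepressor gene Ski by 0.48 ± 0.12. Smad7 stood at 14.04, 13.1 and 13.9 CPM in sh1/2 cells, against 15.3, 12.04 and 13.9 CPM in control cells, with overlapping groups (-0.0076 ± 0.11, adjusted p = 0.97). Skil was lower by 0.23, a call lost without control replicate 2 or sh1/2 replicate 2 (-0.20 each) and with a correction for GC content (-0.098, adjusted p = 0.13). Of 26 tested SMAD2/3 targets, 7 were called higher and 8 lower with a median of 0.005, beside 16.9% and 18.3% of all genes. Members that fell included Bhlhe40, a helix-loop-helix repressor (-1.32 ± 0.079), the kinase gene Nuak1 (-0.97 ± 0.10) and Bmf, a proapoptotic BH3-only gene. Bmf had 4.88, 4.97 and 5.38 CPM in sh1/2 cells, against 12.8, 9.73 and 10.1 CPM in control cells (-1.101 ± 0.13, adjusted p = 3.2e-07). Members that rose included the cell cycle inhibitor Cdkn1a (0.87 ± 0.061), Spsb1, an adaptor of a ubiquitin ligase (0.96 ± 0.10), and the ligand gene Tgfb1 (0.99 ± 0.22).

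In the BMP list 2 of 10 tested members (20%) were called higher and 4 (40%) lower, beside 16.9% and 18.3% of all genes. The BMP antagonists Grem1 (-1.77 ± 0.27) and Chrd (-0.99 ± 0.22) fell, as did Id2 (-0.43 ± 0.057), while Id1, an inhibitor of helix-loop-helix factors and a standard BMP target, rose to 4.49, 6.17 and 3.63 CPM in sh1/2 cells, against 2.06, 2.74 and 1.91 CPM in control cells (1.099 ± 0.23, adjusted p = 0.00053).

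**Figure D2:**
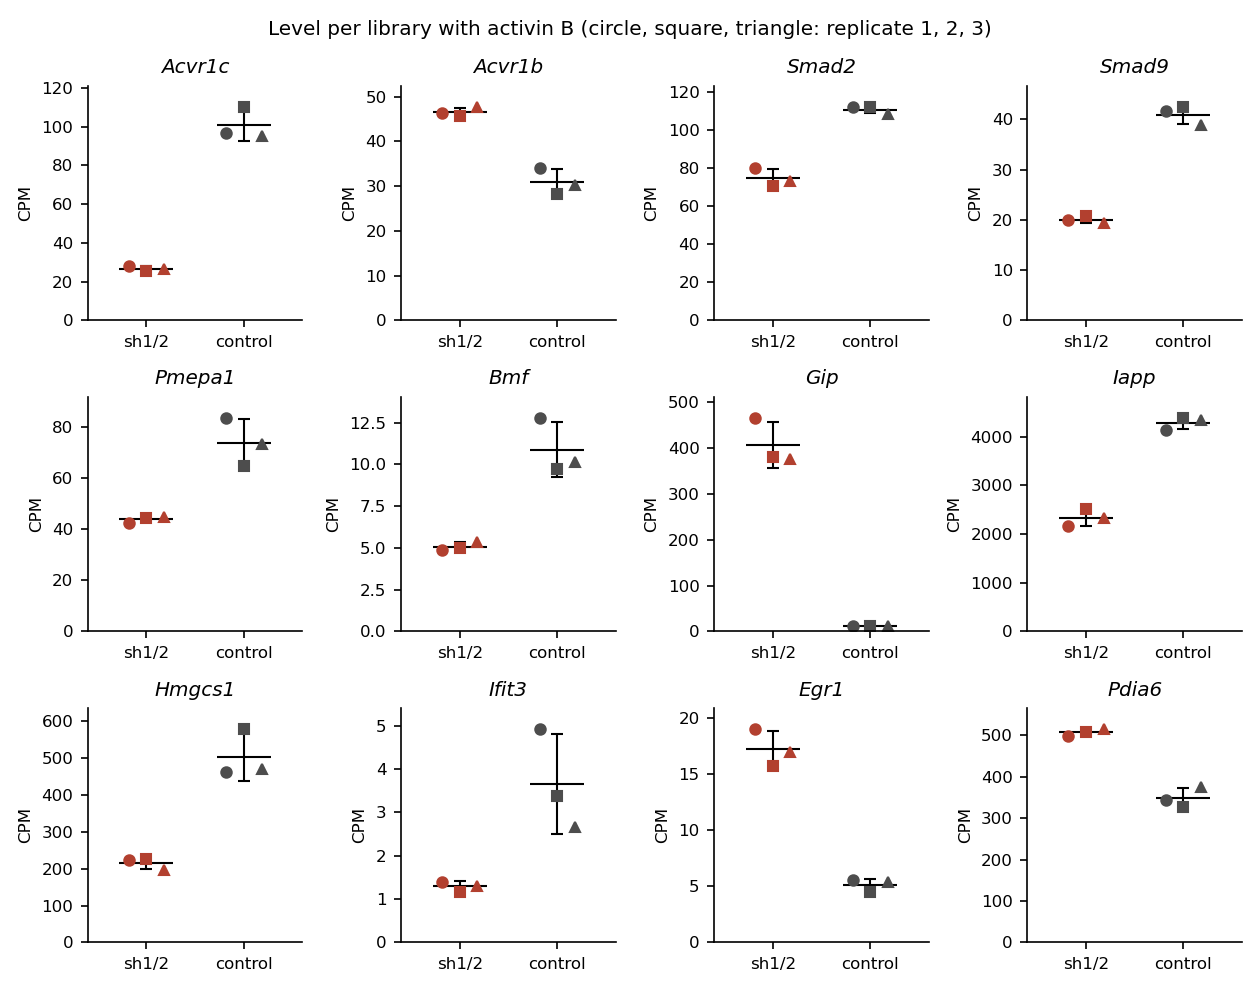
CPM of 12 genes in each of the 6 libraries with activin B, sh1/2 on the left and control on the right. Symbols give the replicate, the horizontal line the group mean and the bar its SD (n = 3), and the groups do not overlap in any panel. Acvr1c, Smad2, Smad9, Pmepa1, Bmf, Iapp, Hmgcs1 and Ifit3 were lower in sh1/2 cells, and Acvr1b, Gip, Egr1 and Pdia6 higher.

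Genes that activin B raised in another line were on balance lower in sh1/2 than in control cells under activin B, and genes it lowered were on balance higher. For this, 493 genes raised and 280 genes lowered at least 2-fold by activin B were taken from the line labelled ALK7, whose libraries are in neither group. These sets were chosen after the data had been seen and are described without a test. Of the 493 raised genes, 75 (15.2%) were called higher and 162 (32.9%) lower in sh1/2 than in control cells, with a median of -0.19. Among the 280 lowered genes the balance was the opposite, with 96 (34.3%) higher and 33 (11.8%) lower and a median of 0.26. Over all genes tested, 16.9% were called higher and 18.3% lower. With DOX alone, in other libraries of both lines, the medians were 0.068 for raised and -0.048 for lowered genes. Of the 12 sh1/2 and control libraries, control replicate 2 with activin B and sh1/2 replicates 1 and 3 with DOX alone departed most from their group means towards few reads on GC-rich genes, at coefficients of -0.67, -0.47 and -0.59, while sh1/2 replicate 2 with DOX alone was at 0.69. Other lines held such libraries too, among them replicate 3 of the line labelled ALK7 with activin B (-0.48). Leaving these 3 libraries out leaves 1 sh1/2 library with DOX alone, whose spread is assumed to be that of the other groups. Without the 3 libraries the medians with activin B were -0.21 for raised and 0.28 for lowered genes, and with DOX alone 0.11 for raised and -0.034 for lowered genes.

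**Figure D3:**
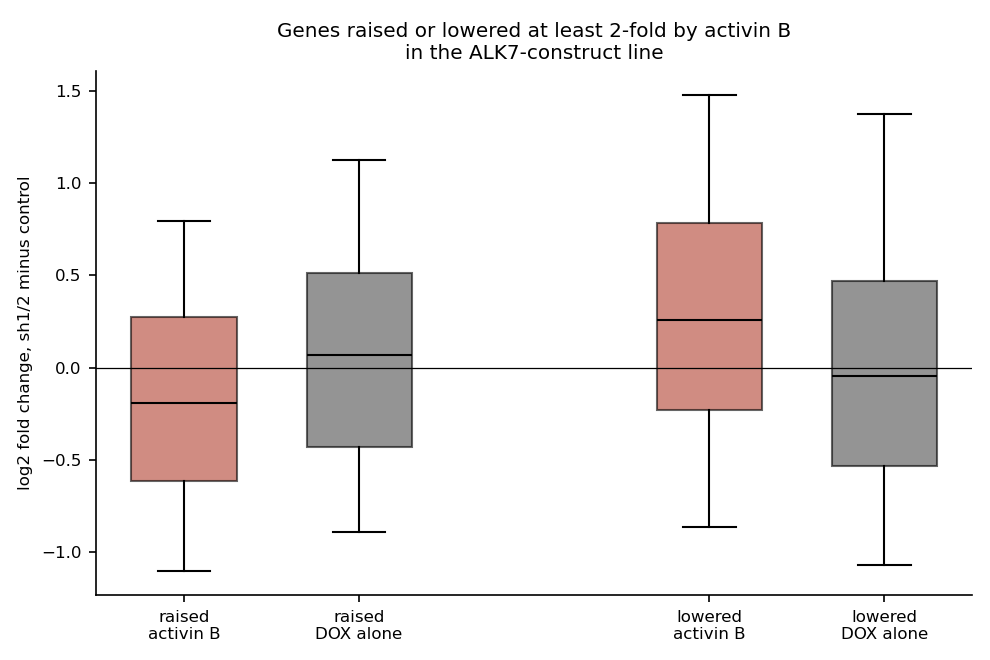
Log2 fold changes of sh1/2 minus control cells for genes raised (left pair) or lowered (right pair) at least 2-fold by activin B in the line labelled ALK7, with activin B in red and with DOX alone in grey. Boxes span the quartiles, lines the medians and whiskers the 10th to 90th percentile; the medians of the red boxes are -0.19 and 0.26 and those of the grey boxes 0.068 and -0.048.

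Among genes of at least 2 CPM that were called with and without control replicate 2 and whose groups did not overlap, the 15 with the largest rise are described first. Gip, the incretin hormone made by K cells of the gut (chromosome 11, 96024545 to 96030831, plus strand), had 464, 379.6 and 375 CPM in sh1/2 cells, against 11.3, 11.8 and 10.9 CPM in control cells, a 35.8-fold difference (5.16 ± 0.11, adjusted p = 7.5e-21). Ryr1, a calcium release channel of skeletal muscle and other cells (chromosome 7, 29003344 to 29125179, minus strand), had 219, 171 and 137 raw counts in sh1/2 libraries, against 1, 3 and 2 in control libraries. Its fitted log2 fold change of 6.20 depends on the few control counts. Non-overlapping groups and a call without control replicate 2 were conditions for choosing these genes and are not separate evidence. Spink4, a protease inhibitor of intestinal goblet cells, rose to 24.9, 31.4 and 29.9 CPM in sh1/2 cells, against 2.27, 2.19 and 2.23 CPM in control cells (3.68 ± 0.14). Somatostatin, Sst, rose by 3.33 ± 0.34, to 3.09, 4.78 and 5.18 CPM in sh1/2 cells, against 0.320, 0.214 and 0.743 CPM in control cells. The other genes of the 15 chosen by size were Neurl3 (2.99), a ubiquitin ligase gene, the imprinted retrotransposon-derived gene Peg10 (2.95), the chemokine gene Cx3cl1 (2.79), the retinol carrier Rbp4 (2.70), the chloride channel Cftr (2.33) and the transporter Slc16a6 (2.23). They also held the LIM protein gene Fhl2 (2.09), Dcdc5 (2.02), the G protein regulator Rgs13 (2.01), the peroxidase Gpx2 (1.999) and secretin, Sct (1.99).

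The largest fall among the genes chosen by size was in the glutamate transporter Slc1a2 (chromosome 2, 102658659 to 102790784, plus strand), with 1.53, 1.56 and 1.92 CPM in sh1/2 cells, against 22.0, 24.1 and 21.6 CPM in control cells (-3.75 ± 0.13, adjusted p = 4.2e-16). Pappa2, a protease that cleaves IGF-binding proteins, fell to 30.5, 23.8 and 27.5 CPM in sh1/2 cells, against 141, 139 and 128 CPM in control cells (-2.32 ± 0.10). Secretogranin II, Scg2, a granule protein, had 239.9, 229.9 and 223 CPM in sh1/2 cells, against 742, 927 and 826 CPM in control cells (-1.85 ± 0.081). In each of these 3 genes the groups were separated by more than 2-fold. The others were the splicing regulator Celf2 (-2.42), Sult1c2, a sulfotransferase (-2.06), Mlph, an adaptor of vesicle transport (-1.999), Lrrn2 (-1.96) and the calcium channel Cacna1e (-1.92). Acvr1c itself, Igfbp7 (-1.90), the mitochondrial coactivator Ppargc1a (-1.88), Prrg4 (-1.86) and the folate enzyme Aldh1l1 (-1.84) followed. Timm8a1 (-2.21) and Tmsb4x (-1.99), for thymosin β4, complete the 15; both have near-identical copies in the genome, and their values are uncertain because how multi-mapping reads were counted is not given in the sources used here.

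Hormones of other islet and gut cells rose as a group. Of 15 tested members of that list, 10 were called higher and 1 lower, with a median of 0.69, and 8 of the 10 were also called without control replicate 2. Glucagon, Gcg, had 31.5, 30.4 and 29.6 CPM in sh1/2 cells, against 14.4, 14.4 and 14.6 CPM in control cells (1.08 ± 0.077, adjusted p = 9.3e-11). Transthyretin, Ttr, which alpha cells make, had 391, 375 and 372 CPM in sh1/2 cells, against 132, 123 and 140.3 CPM in control cells (1.53 ± 0.075). All 3 sh1/2 libraries lay at more than 2-fold the control libraries in both genes. Gast, the gastrin gene, rose by 1.16 ± 0.19 and Fev, a transcription factor of serotonin neurons and endocrine precursors, had 2.54, 1.70 and 2.19 CPM in sh1/2 cells, against 0.233, 0.0857 and 0.248 CPM in control cells (3.42 ± 0.38). Gc, the vitamin D binding protein, was the member that fell (-0.57 ± 0.062).

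The alpha and delta cell markers include Gcg, Ttr and Sst, described above, so their sums are not separate evidence. Summed over 6 alpha cell markers, levels were 409 to 429 CPM in sh1/2 libraries and 143 to 159 CPM in control libraries, with Ttr the main part. Delta cell markers summed to 3.12 to 5.18 CPM in sh1/2 and 0.214 to 0.779 CPM in control libraries. Exocrine and duct markers summed to 5.64 to 6.53 CPM in sh1/2 and 1.45 to 1.97 CPM in control libraries; Cftr carried the sum, and Prss2, Cela2a and Amy2a5 were at 0. Stromal markers summed to 1.98 to 3.10 CPM in sh1/2 and 0.986 to 2.09 CPM in control libraries, and endothelial markers to 1.12 to 1.75 CPM in sh1/2 and 0.514 to 0.885 CPM in control libraries, with Col3a1, Lum and Cdh5 at 0. Immune markers summed to 3.63 to 3.83 CPM in sh1/2 and 1.93 to 2.70 CPM in control libraries, with Cd3e at 0. Below 1 CPM in all 6 libraries were 5 of 6 stromal, 4 of 5 endothelial and 4 of 5 immune markers. In each of these types 1 marker was called higher. The calls of Col1a2 (stroma) and Vwf (endothelium) were lost without control replicate 2 (0.81 and 0.76). Ppy, the marker of PP cells, stood at 1.28 to 1.34 CPM in sh1/2 and 0.428 to 0.991 CPM in control libraries. The part of these markers' cells in the other results was not tested. In such bulk libraries, more cells of a type and more RNA per cell cannot be told apart.

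Of the 36 beta cell identity genes tested, 11 (30.6%) were called higher and 9 (25%) lower, beside 16.9% and 18.3% of all genes. Their median was 0.091. The insulin genes did not differ beyond the spread of replicates: Ins1 had 2088, 2179.8 and 2259.6 CPM in sh1/2 cells, against 2419.7, 1746 and 2160.2 CPM in control cells (0.045 ± 0.11, adjusted p = 0.79). Ins2 had 4711, 6049.5 and 5667 CPM in sh1/2 cells, against 6214, 4093 and 5837 CPM in control cells (0.025 ± 0.16, adjusted p = 0.93), with overlapping groups in both genes. Iapp, the amyloid hormone released with insulin, fell to 2167, 2514 and 2321 CPM in sh1/2 cells, against 4138, 4374 and 4332 CPM in control cells (-0.88 ± 0.071, adjusted p = 7.9e-10). G6pc2, the islet glucose-6-phosphatase, had 1407, 1386 and 1302 CPM in sh1/2 cells, against 2219, 2513 and 2293 CPM in control cells (-0.78 ± 0.064), and Sytl4, a granule-docking protein, fell by 0.998 ± 0.076. Gipr, the receptor for GIP, rose by 0.75 ± 0.13. Pdx1 (-0.0087 ± 0.052) and Nkx6-1 (0.13 ± 0.06), transcription factors of mature beta cells, did not pass the test. Mafa had 14.2, 19.5 and 13.7 CPM in sh1/2 cells, against 7.82, 2.57 and 6.23 CPM in control cells, and its call (1.49 ± 0.52) was lost without control replicate 2, its lowest library (1.17), without sh1/2 replicate 2 (1.31) and without control replicate 3 (1.57).

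Granule genes split. Chgb, chromogranin B, rose to 985, 834 and 949 CPM in sh1/2 cells, against 313, 331 and 339 CPM in control cells (1.49 ± 0.076, adjusted p = 2.4e-13), and Ddc, which makes serotonin and dopamine, had 98.0, 92.2 and 100.02 CPM in sh1/2 cells, against 35.0, 31.9 and 31.4 CPM in control cells (1.56 ± 0.081). Vgf (1.43 ± 0.26), a secreted neuropeptide precursor, and carboxypeptidase E, Cpe (0.57 ± 0.038), which trims prohormones, also rose. Scg2, Scg3 (-0.59 ± 0.086) and Scg5 (-0.42 ± 0.048) fell. Over the list, 8 of 30 tested members (26.7%) were called higher and 6 (20%) lower, with a median of 0.035. The shares over all genes were 16.9% and 18.3%. Among neuropeptides, Cartpt rose (1.31 ± 0.24), while the receptor genes Galr1 (-0.85 ± 0.066) and Oprd1 (-1.34 ± 0.26) fell. The opioid precursor Pdyn had 17.2, 15.3 and 14.9 CPM in sh1/2 cells, against 11.98, 10.97 and 11.7 CPM in control cells (0.45 ± 0.13, adjusted p = 0.0083). Of 13 tested members of the neuropeptide list, 6 (46.2%) were called higher and 2 (15.4%) lower.

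**Figure D4:**
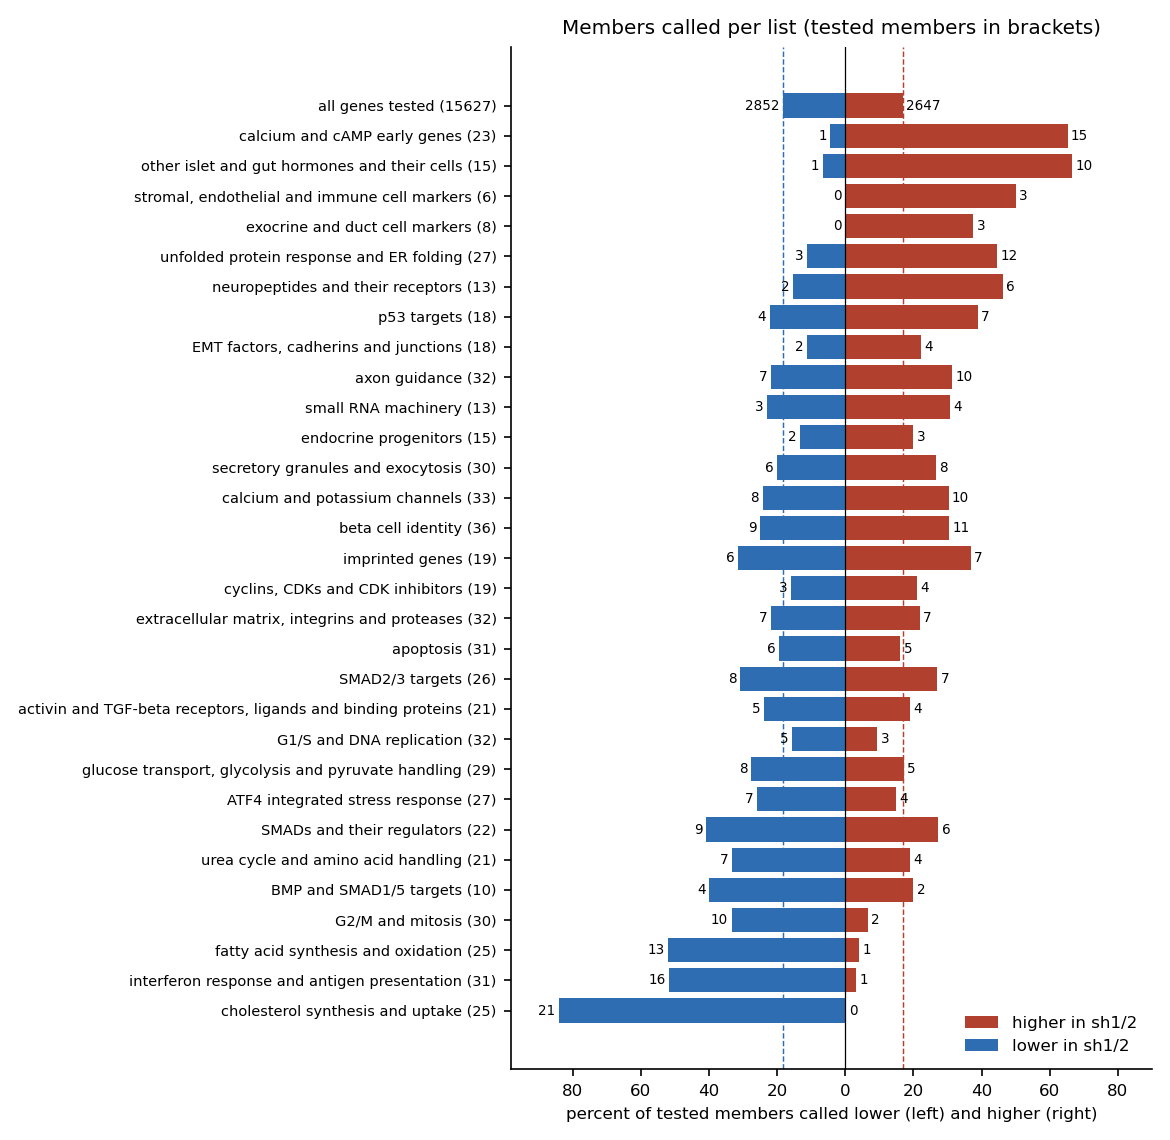
Percent of the tested members of each gene list called lower (blue, to the left) and higher (red, to the right) in sh1/2 than in control cells with activin B. Numbers beside the bars count members, brackets give the members tested, and the top row and dashed lines give all genes tested, 16.9% higher and 18.3% lower. Cholesterol synthesis has 21 of 25 members lower and early genes have 15 of 23 higher.

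Genes of cholesterol synthesis and uptake fell together. Sterol levels control these genes through SREBP2, a membrane-bound transcription factor encoded by Srebf2 that is released when sterols are low. Of 25 tested members, 21 were called lower and 0 higher, with a median of -0.69, and the same 21 were called without control replicate 2. Hmgcs1, an early enzyme of the pathway, had 223, 226 and 198 CPM in sh1/2 cells, against 463, 579 and 471 CPM in control cells (-1.22 ± 0.09, adjusted p = 1.3e-10). Lanosterol synthase, Lss, had 144, 156 and 146 CPM in sh1/2 cells, against 315, 282 and 293 CPM in control cells (-0.996 ± 0.054), so that all sh1/2 libraries of both genes were below all control libraries. Nsdhl (-1.06 ± 0.068), which removes methyl groups from sterols, and Fdps (-1.06 ± 0.086), which makes farnesyl diphosphate, fell as well. Srebf2 itself did not pass the test (-0.021 ± 0.15), and Mvk, mevalonate kinase (-0.19 ± 0.21), did not either, but both were called lower with a correction for GC content (-0.24 and -0.44). Abcg1, a sterol exporter, missed the threshold (-0.24 ± 0.095, adjusted p = 0.052) and was called lower in 8 alternatives, among them without control replicate 2 (-0.35, adjusted p = 0.005). Idi1 did not pass in any (0.65 ± 0.41).

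Fatty acid genes were lower on balance, with 13 of 25 tested members called lower and 1 higher (median -0.22). Beside Ppargc1a, the desaturases, which make monounsaturated fatty acids, fell: Scd1 had 189, 185 and 161 CPM in sh1/2 cells, against 444, 464 and 440.1 CPM in control cells (-1.33 ± 0.066, adjusted p = 1.6e-13), and Scd2 had 1540.0, 1552 and 1407 CPM in sh1/2 cells, against 3436, 3251 and 3296 CPM in control cells (-1.15 ± 0.048). Acly, which makes cytosolic acetyl-CoA (-0.73 ± 0.055), the elongase Elovl6 (-1.30 ± 0.08) and the lipid-sensing receptor gene Pparg (-1.18 ± 0.20) also fell. Fasn, the fatty acid synthase, did not pass (-0.22 ± 0.19, adjusted p = 0.41), but was called lower with a correction for GC content (-0.47, adjusted p = 7.7e-05).

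Interferon response genes were lower on balance too. These genes answer to interferons through a complex of STAT proteins and IRF9, and several encode sensors of double-stranded RNA. Of 31 tested members, 16 were called lower and 1 higher, with a median of -0.29, and 13 of the 16 were also called without control replicate 2. In all, 11 members were called without sh1/2 replicate 3, and likewise when only the 6 libraries were fitted. B2m, the light chain of class I antigen-presenting molecules, had 65.3, 62.1 and 60.6 CPM in sh1/2 cells, against 88.9, 99.97 and 94.3 CPM in control cells (-0.59 ± 0.06, adjusted p = 3.2e-08). Usp18, which removes ISG15, fell to 24.5, 24.7 and 23.8 CPM in sh1/2 cells, against 40.4, 38.6 and 39.4 CPM in control cells (-0.70 ± 0.051), and Rsad2, the antiviral enzyme viperin, fell by 0.86 ± 0.10. Groups did not overlap in these 3 genes. H2-D1, a class I heavy chain (-0.67 ± 0.058), and Ddx58, the RNA sensor RIG-I (-0.92 ± 0.094), fell as well. Ifit3 had 1.398, 1.17 and 1.31 CPM in sh1/2 cells, against 4.91, 3.39 and 2.66 CPM in control cells (-1.50 ± 0.32). The member called higher was Gbp2, with 2.80, 0.279 and 0.336 CPM in sh1/2 cells, against 0.145, 0.0428 and 0.248 CPM in control cells, where sh1/2 replicate 1 carried the difference; the call was lost without it (1.01) and without control replicate 2 (2.52). In the small RNA machinery list 4 of 13 members (30.8%) were called higher and 3 (23.1%) lower, beside 16.9% and 18.3% of all genes. Ago2, the slicing Argonaute, rose by 0.43 ± 0.086 and Drosha by 0.35 ± 0.059, while Ago1 (-0.42 ± 0.055) and Ago4 (-0.52 ± 0.071) fell.

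Early genes induced by calcium and cAMP rose as a group, with 15 of 23 tested members called higher and 1 lower (median 0.75); 11 of the 15 were also called without control replicate 2. Egr1, a zinc finger transcription factor induced within minutes of stimulation, had 18.98, 15.7 and 17.0 CPM in sh1/2 cells, against 5.55, 4.50 and 5.35 CPM in control cells (1.74 ± 0.16, adjusted p = 5.4e-09). Nr4a1, an orphan nuclear receptor, had 10.3, 10.7 and 9.08 CPM in sh1/2 cells, against 3.43, 2.61 and 2.94 CPM in control cells (1.74 ± 0.18). Sik1 (1.16 ± 0.14), a kinase induced by cAMP, Nr4a2 (0.91 ± 0.084), Fos (1.24 ± 0.27) and Npas4 (0.96 ± 0.16) also rose. Dusp1, a MAP kinase phosphatase, was the member that fell, with 15.9, 13.6 and 14.4 CPM in sh1/2 cells, against 19.9, 15.2 and 20.7 CPM in control cells (-0.35 ± 0.10). Its groups overlapped, and the call was lost without control replicate 3 (-0.27).

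Endoplasmic reticulum (ER) folding genes leaned upwards, with 12 of 27 tested members of the unfolded protein response list called higher and 3 lower (median 0.17). Without control replicate 2, 9 of the 12 and 1 of the 3 remained called. The disulfide isomerases Pdia6 and Pdia4 had the smallest p: Pdia6 had 499, 508 and 514 CPM in sh1/2 cells, against 343, 327 and 374 CPM in control cells (0.54 ± 0.062, adjusted p = 2.6e-07), and Pdia4 had 191, 178 and 185 CPM in sh1/2 cells, against 119, 119.6 and 127 CPM in control cells (0.60 ± 0.05). Creld2 (0.61 ± 0.089), Sdf2l1 (0.71 ± 0.10) and Derl3 (1.001 ± 0.21), which take part in folding or in the export of misfolded proteins, rose, as did the stress sensor Ern1 (0.41 ± 0.053). The main ER chaperone Hspa5 (0.091 ± 0.061, adjusted p = 0.26) and the transcription factor Xbp1 (-0.14 ± 0.054, adjusted p = 0.051) did not pass. Hspa5 was called higher (0.16, adjusted p = 0.0026) and Xbp1 lower (-0.15, adjusted p = 0.035) with a correction for GC content.

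**Figure D5:**
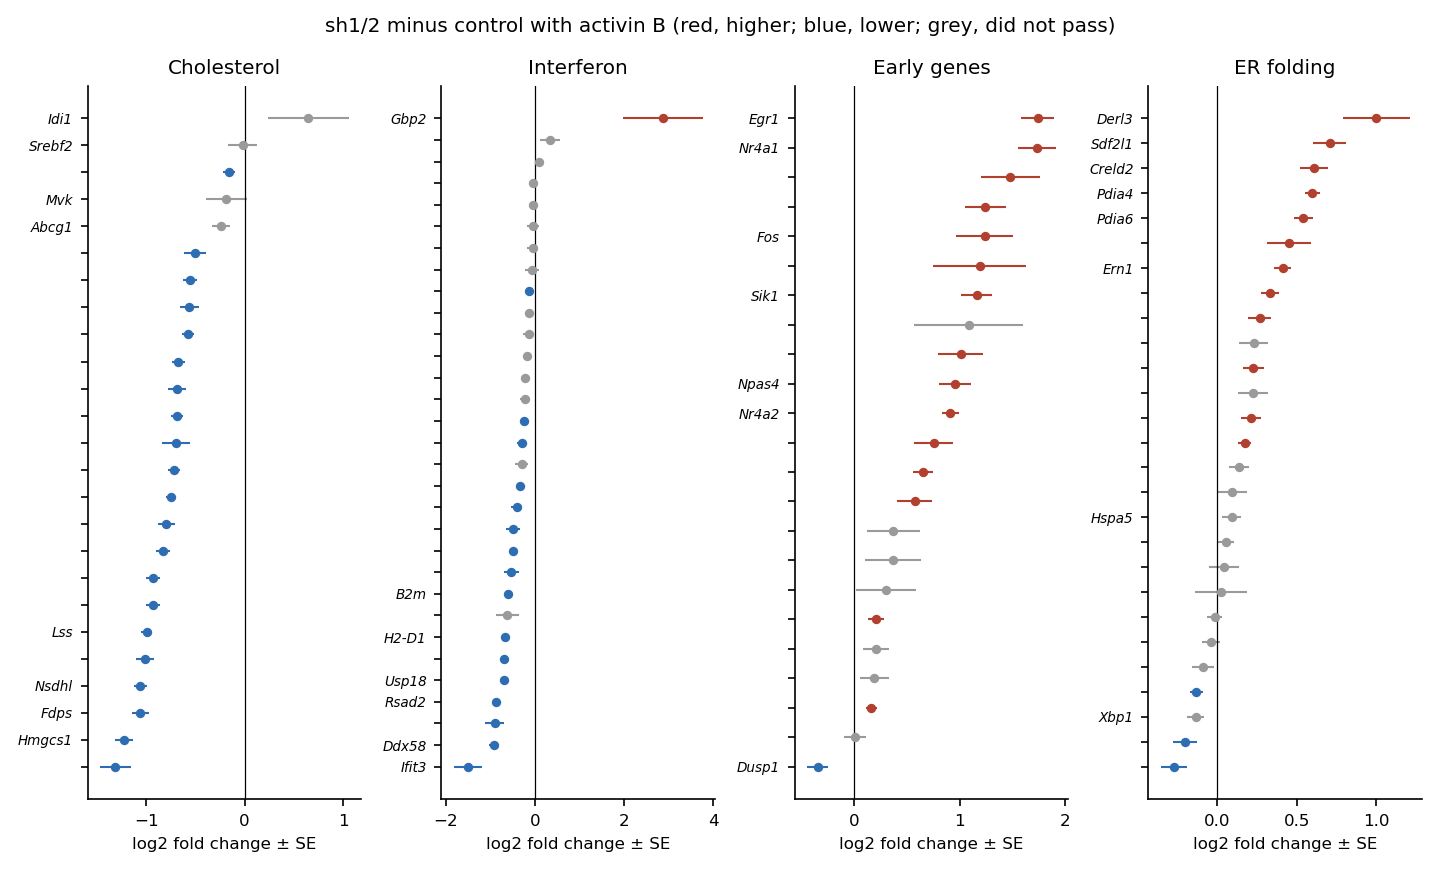
Log2 fold changes of sh1/2 minus control cells with activin B (points) and their SE (bars) for every tested member of the lists for cholesterol, interferon, calcium and cAMP early genes, and ER folding. Red was called higher, blue lower and grey did not pass; gene names mark the members described in the text, and the x axes differ between panels. Of 25 cholesterol genes 21 are blue, and of 23 early genes 15 are red.

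Promoters of these 4 lists were searched for the element each is known by. The windows, from RefSeq (build GRCm38.p6), ran from 250 bases before to 50 bases after each gene's start, were searched on both strands, and existed for 27025 genes; the motifs were picked after the lists' values had been seen. The ER stress response element, CCAAT and CCACG with 9 bases of any kind between them, was in 9 of 22 windows of tested ER folding genes (40.9%), against 0.137% of all windows. The interferon-stimulated response element, GAAA on both sides of 2 bases of any kind, was in 13 of 25 windows of tested interferon genes (52%), against 3.99%. The sterol regulatory element TCACNCCAC was in 1 of 16 windows of tested cholesterol genes (6.25%), against 1.44%, and the cAMP response element TGACGTCA in 2 of 18 windows of tested early genes (11.1%), against 2.03%. The ER element was in 5 of 10 windows of ER folding genes called higher, and the interferon element in 9 of 12 windows of interferon genes called lower. Both lists also had matched members called the other way or not called. Of the 2 early genes with a match, 1 was called higher and the other was Dusp1, called lower. A match describes the letters and not binding. The 250 bases before the start are shown for 4 called members, picked because their window held a match, with the match in capitals. Hmgcs1 (chr13:119690101-119690350, plus strand) holds the sterol element, Ifit3 (chr19:34583279-34583528, plus strand) holds the interferon element at 2 places on the reverse strand, and Pdia6 (chr12:17266339-17266588, plus strand) and Creld2 (chr15:88819396-88819645, plus strand) hold the ER stress element, in Creld2 on the reverse strand.
Hmgcs1: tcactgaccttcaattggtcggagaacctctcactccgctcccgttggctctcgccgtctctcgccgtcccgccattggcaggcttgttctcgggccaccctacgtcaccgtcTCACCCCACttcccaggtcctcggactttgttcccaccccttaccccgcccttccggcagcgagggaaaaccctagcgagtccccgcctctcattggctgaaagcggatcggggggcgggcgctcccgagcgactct
Ifit3: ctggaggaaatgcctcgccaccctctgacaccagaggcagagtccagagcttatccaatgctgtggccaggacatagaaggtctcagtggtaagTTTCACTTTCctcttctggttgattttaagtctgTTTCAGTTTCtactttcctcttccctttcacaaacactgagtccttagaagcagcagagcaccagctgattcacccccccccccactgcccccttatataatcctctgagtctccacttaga
Pdia6: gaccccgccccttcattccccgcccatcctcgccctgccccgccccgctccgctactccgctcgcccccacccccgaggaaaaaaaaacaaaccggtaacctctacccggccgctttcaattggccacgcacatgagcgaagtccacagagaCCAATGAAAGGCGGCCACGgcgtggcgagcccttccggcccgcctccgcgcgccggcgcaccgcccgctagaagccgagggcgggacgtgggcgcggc
Creld2: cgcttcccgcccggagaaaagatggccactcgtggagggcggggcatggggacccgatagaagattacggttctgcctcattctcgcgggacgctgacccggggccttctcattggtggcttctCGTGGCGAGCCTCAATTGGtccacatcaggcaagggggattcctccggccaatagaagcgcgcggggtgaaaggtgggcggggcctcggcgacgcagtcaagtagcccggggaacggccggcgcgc

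Genes of mitosis were slightly lower in their median. Of 30 tested G2/M genes, 10 (33.3%) were called lower and 2 (6.67%) higher, beside 18.3% and 16.9% of all genes. Their median was -0.12, and 4 of the 10 and 1 of the 2 were also called without control replicate 2. In that fit 5 members were called lower and 1 higher in all, beside 14.9% and 11.5% of all genes. Without sh1/2 replicate 3, 7 members were called. The list median with DOX alone was 0.044, with 2 members called higher and 5 lower. Hmmr, a spindle protein, had 263, 258 and 272 CPM in sh1/2 cells, against 315, 451 and 359 CPM in control cells (-0.51 ± 0.12, adjusted p = 0.0022), and the kinase gene Aurkb fell by 0.32 ± 0.069. Mki67, a marker of cycling cells, had 1814, 1570.4 and 1789 CPM in sh1/2 cells, against 2121, 2339 and 2224 CPM in control cells, a call (-0.37 ± 0.14) lost when any 1 of the 6 libraries was left out (-0.41 to -0.31). Of 32 tested genes of G1/S and replication, 3 (9.38%) were called higher and 5 (15.6%) lower, beside 16.9% and 18.3% of all genes. Among cell cycle regulators Cdkn1a had 169.5, 170.0 and 174 CPM in sh1/2 cells, against 97.4, 82.0 and 101 CPM in control cells, and Myc had 6.37, 6.26 and 6.26 CPM in sh1/2 cells, against 2.85, 2.10 and 2.94 CPM in control cells (1.25 ± 0.18). Trp53, the p53 gene, rose by 0.63 ± 0.094, and of 18 tested p53 targets 7 were called higher and 4 lower, or 4 and 3 without control replicate 2. In the apoptosis list 5 of 31 (16.1%) were called higher and 6 (19.4%) lower, near the shares of all genes. Bcl2l11, a BH3-only gene (0.53 ± 0.06), was among those that rose and Bmf among those that fell.

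Axon guidance genes differed in both directions. Robo2 had 50.2, 47.1 and 46.9 CPM in sh1/2 cells, against 95.9, 105 and 94.2 CPM in control cells (-1.03 ± 0.075, adjusted p = 1.1e-10). Its relative Robo1 rose by 0.72 ± 0.079, Nrp2 fell by 1.31 ± 0.10 and Sema6a rose by 1.63 ± 0.12. In that list 10 of 32 were called higher and 7 lower. Of 33 tested channel genes 10 were called higher and 8 lower, among them the ER calcium release channels Itpr2 (1.04 ± 0.063) and Itpr3 (1.14 ± 0.14), both higher. The junction gene Jam2 had 14.1, 14.2 and 13.7 CPM in sh1/2 cells, against 47.6, 53.8 and 45.0 CPM in control cells (-1.80 ± 0.11, adjusted p = 3.7e-12), and the matrix protein Spon2 had 16.3, 18.0 and 21.7 CPM in sh1/2 cells, against 53.5, 36.4 and 44.4 CPM in control cells (-1.27 ± 0.14). Matrix genes had 7 called in each direction of 32 (21.9% each, beside 16.9% higher and 18.3% lower over all genes). Glycolysis genes had 5 higher and 8 lower of 29, with the lactate transporter Slc16a1 at 46.0, 43.9 and 43.9 CPM in sh1/2 cells, against 78.3, 80.6 and 79.0 CPM in control cells (-0.83 ± 0.052), and urea cycle and amino acid genes had 4 higher and 7 lower of 21. The urea cycle enzyme Otc rose (1.66, 1.17 and 1.61 CPM in sh1/2 cells, against 0.0872, 0.129 and 0.0354 CPM in control cells). Imprinted genes had 7 higher and 6 lower of 19, or 8 called in all without sh1/2 replicate 2, and ATF4 response genes 4 higher and 7 lower of 27.

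The same lines were compared with DOX alone, in 6 further libraries, to see which differences were also present without activin B. There the test called 5934 genes (38%), 3033 higher (19.4%) and 2901 lower (18.6%); without each of the 6 libraries in turn it called 4338 to 7912, and without the 3 libraries low in GC-rich genes, when sh1/2 replicate 2 alone stands for its group, 3351. Of the calls with activin B, 2663 were called in the same direction with DOX alone, which is 48.4% of the activin B calls and 44.9% of the DOX calls, and 79 were called in the opposite direction. The trends with GC content were opposite, with Spearman coefficients of 0.35 with activin B and -0.37 with DOX alone. Acvr1c had 55.3 ± 8.001 CPM in sh1/2 and 165 ± 6.34 CPM in control cells with DOX alone (SD, n = 3 each; -1.58 ± 0.11). Gip (4.84 ± 0.10), Ryr1 (5.31 ± 0.39), Spink4 (3.53 ± 0.14) and Slc1a2 (-2.96 ± 0.15) had differences of the same direction there, each called. Counts without the 3 libraries, given next, rest on that 1 sh1/2 library. Cholesterol genes had 24 of 25 members lower and 0 higher, and 22 lower without the 3 libraries, with medians of -0.68 and -0.67. Early genes had 14 higher and 0 lower (15 higher without the 3 libraries). Interferon genes had 2 higher and 16 lower, and 0 and 10 without the 3 libraries. ER folding genes did not lean one way, with 7 higher and 7 lower, and 4 and 6 without the 3 libraries.

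The interaction, the difference between the lines with activin B minus that with DOX alone, tested the change itself. It called 2768 genes (17.7%; 8.49% higher and 9.22% lower), but this count depended on the libraries and on the fit. Among libraries with activin B, it was 324 without control replicate 2, 5111 without control replicate 1, and 507 and 528 without sh1/2 replicates 2 and 3. Among those with DOX alone, it was 289, 6983 and 303 without sh1/2 replicates 1, 2 and 3, and 411 and 687 without control replicates 1 and 3. It was 64 without the 3 libraries, with 1 sh1/2 library left with DOX alone, and 45 when only these 4 groups were fitted, and across genes the interaction correlated with GC content at a Spearman coefficient of 0.66 (0.094 without the 3 libraries). A set of 54 genes was called in the fit of all libraries, without control replicate 2 and without the 3 libraries, 38 of them negative and 16 positive; 51 of the 54 were also called without each of the 12 libraries in turn. Of the 38 negative genes, 26 (68.4%) were among those raised at least 2-fold by activin B in the line labelled ALK7, beside 3.15% of all genes tested, and of the 16 positive genes 6 (37.5%) were among those lowered, beside 1.79%. The set was chosen by calls in fits of these same libraries, among them the fit without control replicate 2. Calls without each library in turn are therefore not separate evidence. Genes of this set are named here after their values were seen. Agt, angiotensinogen, had 16.0 ± 1.28 CPM in sh1/2 and 29.4 ± 6.35 CPM in control cells with activin B, and 4.30 ± 1.18 CPM in sh1/2 and 2.11 ± 0.199 CPM in control cells with DOX alone (SD, n = 3 each), so the line difference turned round (-1.93 ± 0.27, adjusted p = 0.00023). Gc, Bmf, Adamts6, a secreted metalloprotease, and Cdh17, an intestinal cadherin, had interactions of -1.44 ± 0.088, -1.53 ± 0.21, -1.49 ± 0.21 and -1.69 ± 0.28. Id2 (-0.92 ± 0.081), Slc16a1 (-0.81 ± 0.074), Smad9 (-0.75 ± 0.10), Skil (-0.71 ± 0.10), Bambi (-0.44 ± 0.082) and Cdkn1a (-0.34 ± 0.086) were negative as well, though the interaction of Bambi was not called with a correction for GC content (-0.20, adjusted p = 0.41); in Cdh17 the line difference was 0.89 ± 0.16 with activin B and 2.58 ± 0.23 with DOX alone. Pdia6 (0.62 ± 0.088) and Sdf2l1 (0.99 ± 0.15) were positive: their line difference was 0.54 ± 0.062 and 0.71 ± 0.10 with activin B, and -0.082 ± 0.062 and -0.28 ± 0.10 with DOX alone. The interaction of Acvr1c did not pass (-0.34 ± 0.15, adjusted p = 0.1).

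The second hairpin line, with the single hairpin sh2 in PB-31, was also treated with DOX and activin B in batch 1, so that sh1/2 could be set against a line on the same plasmid. That test called 3643 genes (23.3%), 1683 higher (10.8%) and 1960 lower (12.5%). The log2 fold changes of sh1/2 minus sh2 cells correlated with GC content at a Spearman coefficient of 0.31. Acvr1c was lower, at 26.7 ± 1.26 CPM in sh1/2 and 42.7 ± 1.79 CPM in sh2 cells (SD, n = 3 each; -0.68 ± 0.11, adjusted p = 4.9e-05). Gip had 406 ± 50.2 CPM in sh1/2 and 49.1 ± 5.17 CPM in sh2 cells (3.05 ± 0.095). Cholesterol genes had 19 of 25 members lower in sh1/2 than in sh2 cells and 0 higher. Early genes had 16 of 23 higher and 1 lower, and interferon genes 12 of 31 lower and 0 higher. The list of other islet and gut hormones and their cells had 10 of 15 higher and 1 lower. Pdyn differed by 2.09 ± 0.14 and Gcg by 1.85 ± 0.081, both higher in sh1/2 cells. G2/M genes had 15 of 30 lower and 0 higher. By the rule on size, Ryr1 (7.01 ± 0.45), Neurl3 (2.58 ± 0.21) and Slc16a6 (2.31 ± 0.12) were among those furthest up beside Gip, and Slc17a6, a vesicular glutamate transporter (-1.60 ± 0.21), Ntm (-1.60 ± 0.093) and Dab1 (-1.28 ± 0.089) among those furthest down.

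Set against the same control libraries, which both comparisons share, the sh2 line had 1443 calls (9.23%; 3.06% higher and 6.18% lower), and 1230 without control replicate 2. Acvr1c differed by -1.91 ± 0.11 in sh1/2 and by -1.24 ± 0.11 in sh2 cells. Slc1a2 was at -3.75 ± 0.13 in sh1/2 and -2.18 ± 0.12 in sh2, Gip at 5.16 ± 0.11 in sh1/2 and 2.11 ± 0.10 in sh2, and Spink4 at 3.68 ± 0.14 in sh1/2 and 1.97 ± 0.14 in sh2. Other genes differed in direction between the lines: Gcg was at 1.08 ± 0.077 in sh1/2 and -0.77 ± 0.082 in sh2, and Sst at 3.33 ± 0.34 in sh1/2 and -1.71 ± 0.51 in sh2. Egr1 was at 1.74 ± 0.16 in sh1/2 and 0.46 ± 0.16 in sh2 cells, where it did not pass. Of the cholesterol genes 21 were lower in sh1/2 and 6 in sh2 cells, each against the control.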

How the data were processed

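Per the labels' protocols, βTC3 cells in 6-well plates were treated in triplicate, RNA was taken with Trizol and libraries were made from 500 ng of total RNA with a strand-specific kit for mRNA. The submitters' processing notes name bcl2fastq 2.17, cutadapt 1.4.2, HISAT2, featureCounts 1.4.4, edgeR and the mouse build mm10; the strand setting and the handling of reads with several matches are not given in the sources used here, so overlapping, antisense and near-identical genes are uncertain. The deposited values are raw counts per gene from the authors' counting. The counts of 30 libraries and 39017 genes held none on mitochondrially encoded genes.

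From these counts, edgeR 4.0.16 (R 4.3.3) fitted a quasi-likelihood model with a mean for each of the 10 groups over all 30 libraries, after filterByExpr and TMM scaling, so that all groups share 1 estimate of the spread; p-values were adjusted by Benjamini-Hochberg over 15627 genes and called under 0.05. Each log2 fold change is printed with its SE as value ± SE; means are printed ± SD. A deposited table of log2 expression made by the authors was not used. Alternatives were DESeq2 1.42.0, limma-voom (limma 3.58.1), DESeq2 size factors, no filter, the replicate number as a block, a GC correction (lowess offsets per library, span 0.3), only the compared groups, and leaving out 1 library at a time; leaving out 3 libraries low in GC-rich genes together, and each DOX or sh2 library in turn, was added after seeing the data. GC content and coordinates came from GENCODE M21 (GRCm38, the same build as mm10), matched by ID for 37607 genes. The fits were also run on simulated counts without GC-linked departures of libraries. That run does not show how the fits handle such departures. 

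The genes and 30 gene lists were chosen with earlier results of these data known. Named genes were receptor, SMAD and hormone genes set by name, the 15 per direction with the largest change among genes called with and without control replicate 2 (at least 2 CPM, groups not overlapping), in every list the 4 members of lowest p, and the 5 per direction for the interaction and for sh1/2 against sh2; other list members are named for their roles, chosen after their values were seen. Some members counted in the lists are not reported here by name.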

Additional observations from a re-analysis of the deposited data

Results flagged for a closer look

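The difference between sh1/2 and control cells with activin B was set against the same difference with DOX alone, and 2768 genes passed the test of that interaction. Among the genes named in the text or by the rule for naming, 59 passed it. Each value below is the interaction, the log2 fold change of sh1/2 minus control cells with activin B minus that with DOX alone. Of these 59 genes, 26 were still called without control replicate 2, 15 without all 3 libraries low in GC-rich genes and 39 after a correction for GC content. Without the 3 libraries, sh1/2 cells with DOX alone are 1 library, replicate 2, whose spread is assumed to be that of the other groups.

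Negative interactions called in each of the fits with all libraries, without control replicate 2 and without the 3 libraries were those of Agt (-1.93), Cdh17 (-1.69), Bmf (-1.53), Adamts6 (-1.49), Gc (-1.44), Spon2 (-1.12), Id2 (-0.92), Slc16a1 (-0.81), Smad9 (-0.75), Skil (-0.71), Bambi (-0.44) and Cdkn1a (-0.34). Positive ones were those of Sdf2l1 (0.99) and Pdia6 (0.62). With a correction for GC content Bambi was at -0.20 and not called, and the others named here were called.

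Negative interactions that lost their call without control replicate 2 or without the 3 libraries were those of Rgs13 (-1.35), Jam2 (-1.32), Neurl3 (-1.22), Mlph (-1.05), Scg3 (-0.82), Slc1a2 (-0.80), Igfbp7 (-0.63), Tmsb4x (-0.60), Smad7 (-0.59), Gcg (-0.56), Hmgcs1 (-0.53), Ddc (-0.52), Ntm (-0.50), Tgfbr1 (-0.44), Acvr2a (-0.43), Nsdhl (-0.43), Ddx58 (-0.41), Bhlhe40 (-0.36) and G6pc2 (-0.29). Positive ones of this kind were those of Mafa (2.46), Pcsk1n (2.168), Dpm3 (2.08), Map1s (1.80), Nkx6-2 (1.55), Sst (1.55), Derl3 (1.35), Pdyn (1.07), Cx3cl1 (0.85), Ins2 (0.80), Rbp4 (0.77), Sema6a (0.68), Itpr3 (0.66), Srebf2 (0.64), Creld2 (0.63), Ldlrad4 (0.62), Gpx2 (0.55), Smad3 (0.50), Ins1 (0.46), Spsb1 (0.46), Pappa2 (0.42), Ttr (0.41), Aurkb (0.34), Pdia4 (0.29), Pdx1 (0.26) and Cpe (0.21).

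The positive interactions furthest from 0, in Mafa, Pcsk1n, Dpm3, Map1s and Nkx6-2, were 1.25, 0.83, 0.99, 0.68 and 0.55 without the 3 libraries, in that order, and none of the 5 was called there.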

How the results depend on the processing

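The count of genes called with activin B lay between 3820 (only the 6 libraries fitted) and 7179 (GC correction with the replicate number as a block) over 15 alternatives, and between 4171 and 5825 when 1 library was left out, each within 1.5 times of 5499. Acvr1c stayed called in each, at -1.95 to -1.85 with 1 library left out. With DOX alone the count was 2430 with only the 2 groups fitted and 3351 without the 3 libraries low in GC-rich genes, and 4338 to 7912 with 1 of its libraries left out. The interaction count moved most of the 5: 989 genes without the filter on low counts, 4704 with the replicate block, 1089 with GC correction, 45 with only its groups, 64 without the 3 libraries and 289 to 6983 with 1 left out, the most without sh1/2 replicate 2 with DOX alone. Without the 3 libraries, that replicate is the whole of its group. Against sh2, 5560 genes were called with GC correction and the block, and 2614 to 3259 with 1 library left out. For sh2 against control the counts were 2368 with GC correction, 3216 with GC correction and the block, 440 with only the groups compared, and 1016 to 1401 with 1 left out. The causes were not tested. Depth limits genes such as Ryr1, Otc and Fev, which had few counts in control libraries. Same-numbered wells of the 2 lines had deviations correlated at 0.083, 0.026 and 0.13, so the numbers were not taken as pairs; with the replicate block 6247 genes were called in place of 5499.

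Over the named genes, a call changed in few: without control replicate 2, 11 lost theirs and 1 gained one, and with GC correction 6 lost and 8 gained one. Values that turned direction belonged to genes that passed the test in none of these settings, apart from Srebf2, called with GC correction. Ins1 was -0.073 without the 3 libraries and -0.074 to 0.16 with 1 left out. Ins2 was -0.16 with GC correction, -0.17 with the block added, -0.14 without the 3 libraries and -0.14 to 0.14 with 1 left out. Nkx6-1 was -0.18 with GC correction and -0.17 with the block added. Without the filter Pdx1 was 0.0024 and Smad7 0.0028. With 1 library left out Pdx1 lay at -0.054 to 0.028, Smad7 at -0.093 to 0.078 and Srebf2 at -0.17 to 0.12.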
